A study of Mus musculus with 12 samples.

Results

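The nuclear genes of the mitochondrial respiratory chain were followed through 12 ATAC-seq libraries of mouse T helper cells. ATAC-seq counts the DNA fragments that the Tn5 transposase frees from open chromatin, so a higher count at a region means that it was cut more often. Members were taken as every counted region (peak) within 1 kb of either end of a protein-coding gene whose symbol starts with Nduf, Uqcr, Sdha, Sdhb, Sdhc, Sdhd, Cox4i, Cox5, Cox6, Cox7, Cox8 or Atp5, or is Cycs or Cyc1. This rule used positions and names and no measured value. It gave 92 of the 48443 peaks, at 88 of 102 matching genes.

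The starting cells were naive splenic T cells of C57BL/6 mice labelled WT (wild type), gated as CD4+CD44-CD62L+CD25- and activated on wells coated with antibodies to CD3 and to CD28, both at 1 µg/ml. For Th17n cells, the non-pathogenic form of T helper 17 cells, IL-6 was added at 25 ng/ml together with TGF-beta1 at 2 ng/ml. For induced regulatory T cells (iTreg), TGF-beta1 alone was added, also at 2 ng/ml. Either culture had 100 µM DFMO (difluoromethylornithine, which blocks ornithine decarboxylase, the first enzyme of polyamine synthesis) or vehicle until harvest at 68 h. The 4 groups hold 1 library from each of the same 3 animals. All are bulk cultures grown in vitro and sorted for live cells, then frozen and thawed before tagmentation, so fewer cells with an open site and a less open site in every cell cannot be told apart. The labels give no age or sex of the animals.

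The respiratory chain passes electrons from NADH (at complex I) and succinate (at complex II) through ubiquinone to complex III, by cytochrome c to complex IV, and so to oxygen, while complex V (ATP synthase) makes ATP from the proton gradient. Most subunits are encoded in the nucleus, and their promoters are known for sites of NRF1, the ETS factor GABP, Sp1 and YY1. In T cells the chain supports proliferation and differentiation, and complex II also belongs to the citric acid cycle.

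The promoters of 3 members are printed because their peaks rose with DFMO: Ndufa5 and Cox7c in both lineages and Ndufb4 in iTreg. Each sequence is the 250 bases before the annotated start, 5′ to 3′ on the gene's strand, from RefSeq on GRCm38.p6, and capitals mark a match to a motif searched on both strands. The Ndufa5 window (chr6:24527691-24527940, minus strand) lies before the farther of its annotated starts, the Ndufb4 window is chr16:37654369-37654618 (minus strand) and the Cox7c window is chr13:86046796-86047045 (minus strand).
Ndufa5: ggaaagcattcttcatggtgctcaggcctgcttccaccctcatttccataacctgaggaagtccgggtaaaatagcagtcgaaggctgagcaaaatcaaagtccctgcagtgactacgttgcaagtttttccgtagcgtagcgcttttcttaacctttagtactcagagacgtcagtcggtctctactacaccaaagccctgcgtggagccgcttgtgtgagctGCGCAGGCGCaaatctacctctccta
Ndufb4: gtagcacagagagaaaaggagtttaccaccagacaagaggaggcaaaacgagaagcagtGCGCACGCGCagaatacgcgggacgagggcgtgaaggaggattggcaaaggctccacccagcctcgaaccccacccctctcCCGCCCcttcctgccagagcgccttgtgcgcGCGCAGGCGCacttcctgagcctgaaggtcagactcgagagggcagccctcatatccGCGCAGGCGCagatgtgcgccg
Cox7c: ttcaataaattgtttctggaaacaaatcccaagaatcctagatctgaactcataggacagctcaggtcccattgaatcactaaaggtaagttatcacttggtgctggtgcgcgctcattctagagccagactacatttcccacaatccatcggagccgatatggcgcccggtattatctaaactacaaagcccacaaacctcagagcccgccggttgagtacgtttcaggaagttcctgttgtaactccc
The motif known from NRF1 (GCGCA and GCGC with any 1 base between them) was present once in the Ndufa5 window, 26 bases before the start, and at 3 places in the Ndufb4 window. The Ndufb4 window also holds 1 match to GGGCGG, the Sp1 motif, 110 bases before the start. The Cox7c window held no match to any motif searched, which says only that these letters are not in it.

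Members were found at all levels of the chain except cytochrome c. They were grouped by symbol alone, so Ndufa4 and its paralog Ndufa4l2 are counted with complex I. Complex I subunits had 36 peaks at 34 of 41 genes and complex I assembly factors 8 peaks at 8 genes. Complex II had 4 peaks at 4 subunit genes and 4 at its 4 assembly factors, complex III 9 at 9 genes, complex IV 12 at 12 of 18 genes and complex V 19 at 17 genes. Of the 92 peaks, 83 overlapped the gene end itself, and 70 of the 78 whose gene has a tabulated start site covered that site. Their median width was 897 bp, against 859 bp for peaks at an end of any protein-coding gene and 480 bp for all peaks. A further protein-coding gene ended within 1 kb of 43 member peaks (46.7%), which held for 15.5% of peaks at gene ends in general. A change at such a peak cannot be assigned to 1 of the genes.

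For 14 genes no peak lay within 1 kb of an end of the gene model. They include the lung isoform Cox4i2, the muscle isoforms Cox6a2 and Cox8b and the testis isoforms Cox7b2 and Cox8c, whose widely expressed partners Cox4i1, Cox6a1, Cox8a and Cox7b each had a peak. Cox5a, Cycs, Ndufa6, Ndufb4b, Ndufb4c, Ndufb5, Ndufs7 and Ndufs8 are also among them. The Cox5a start site lies farther than 1 kb from either end of its gene model and had a peak of its own, at 36.5 ± 2.28 CPM in Th17n with vehicle (SD, n = 3). CPM are counts per 1000000 after TMM scaling of the library totals. Peaks also lay at genes of restricted isoforms, Cox6b2 (testis) and Cox7a1 (heart and muscle), whose mean levels with vehicle were 31.9 ± 13.5 and 43.8 ± 8.21 CPM in Th17n.

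Member peaks were well filled. Of 92 peaks 91 entered the test, and the other, a second Atp5l peak, had too few counts. Their mean levels over the 4 groups ran from 4.14 CPM at Cox7b to 183 CPM at Sdhaf1, a complex II assembly factor, with a median of 37.7 CPM. Per kb of peak, Ndufaf8, a complex I assembly factor, was highest at 142 CPM per kb, and Atp5pb, a stalk subunit of complex V, was lowest among those tested at 10.2 CPM per kb. The members' median in a library lay between 31.8 and 45.3 CPM, against 30.2 to 38.5 CPM for all peaks tested at gene ends.

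Facts of the whole series bear on these values as follows. Library totals ran from 1020937 to 6496550 counts, and the smallest is Th17n with vehicle from animal 1. Gene-end peaks held 46.1% ± 0.498 of the counts in Th17n with vehicle, 48.3% ± 0.912 in Th17n with DFMO, 55.1% ± 1.19 in iTreg with vehicle and 56.5% ± 0.988 in iTreg with DFMO (SD, n = 3). The summed level of 8 peaks at T cell marker genes was 197 to 260 CPM over all 12 libraries. Peaks at Th17 marker genes summed to 82.1 to 99.6 CPM in Th17n with vehicle and 35.2 to 40.3 CPM in iTreg with vehicle. Foxp3, the defining factor of regulatory T cells, had no peak within 1 kb of a gene end, and the 5 peaks at Treg marker genes were not higher in iTreg (165 to 194 CPM) than in Th17n (242 to 263 CPM) with vehicle. With DFMO the Th17 marker sum was 61.0 to 68.7 CPM in Th17n and 25.2 to 35.6 CPM in iTreg, and the Treg marker sum 156 to 196 CPM and 140 to 154 CPM. Of other cell types, no gene-end peak was counted for Cd8a, Nkg7, Klrd1, Cd79b, Ms4a1, Pax5, Csf1r, Itgam or Lyz2, while the 1 B cell peak was at 14.1 to 26.8 CPM and the 2 myeloid peaks at 21.1 to 40.9 CPM over all libraries. The 2 cytotoxic cell peaks summed to 22.3 to 23.8 CPM with vehicle and 15.0 to 17.9 CPM with DFMO in Th17n, and to 8.29 to 15.6 CPM and 17.2 to 28.9 CPM in iTreg. Their part in the results was not tested.

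With DFMO the respiratory chain genes took a larger share of the counts at gene ends in both lineages. In Th17n that share was 0.824%, 0.795% and 0.793% with vehicle and 0.863%, 0.864% and 0.834% with DFMO (animals 1, 2 and 3). In iTreg it was 0.816%, 0.820% and 0.809% with vehicle and 0.874%, 0.856% and 0.873% with DFMO. Every DFMO library lay above every vehicle library of its lineage. The group means were 0.804% ± 0.0174 and 0.854% ± 0.0170 in Th17n and 0.815% ± 0.00551 and 0.868% ± 0.0104 in iTreg. Within 1 lineage, 3 libraries against 3 cannot bring an exact test under 0.05, and no test of the share is given. The pattern was not particular to the respiratory chain: peaks at mitochondrial ribosomal protein genes (Mrp), another nuclear set for mitochondrial proteins, went from 0.686% ± 0.0117 to 0.745% ± 0.0148 in Th17n and from 0.713% ± 0.00780 to 0.754% ± 0.0185 in iTreg.

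**Figure D1:**
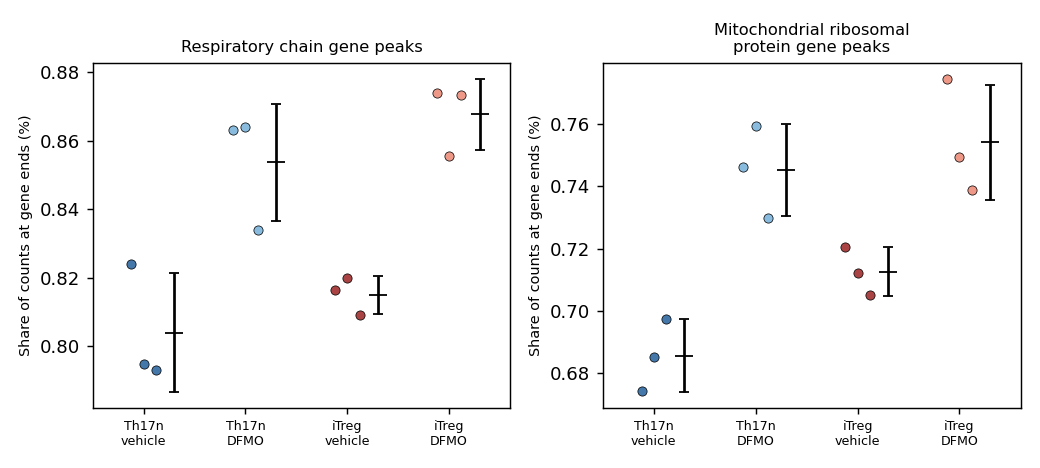
Share of each library's counts at gene ends that lay in respiratory chain gene peaks (left) and mitochondrial ribosomal protein gene peaks (right), in percent, by group. Points are libraries (animals 1 to 3 from left to right) and the bars beside them are mean ± SD. In both panels and both lineages all 3 DFMO libraries sit above all 3 vehicle libraries. The vertical axes do not start at 0.

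In Th17n cells, DFMO raised 8 of the 91 member peaks and lowered 0. They are at Ndufa5, Ndufa3 and Ndufb10 (complex I subunits), Ndufaf3 (complex I assembly), Sdhaf1 (complex II assembly), Cox7c and Cox7a2 (complex IV) and Atp5o (the OSCP subunit of complex V, which joins its stalk to the catalytic head). The test was edgeR's quasi-likelihood test with Benjamini-Hochberg adjustment over all 43726 peaks tested and a threshold of 0.05. It called 4.5% of all peaks and 4.46% of peaks at gene ends higher, and 4.28% and 2.05% lower. An unadjusted p under 0.05 was reached by 30 members, by 2430 of 11789 gene-end peaks and by 10138 of all 43726. All 3 DFMO libraries lay above all 3 vehicle libraries at 30 members and at 17.0% of gene-end peaks (all peaks: 14.6%). The opposite order held for 7 members (8.85% of gene-end peaks, 14.9% of all). The members' median log2 change was 0.21, against 0.08 at gene ends and 0.01 over all peaks, and 64 members were above 0. With TMM factors from gene-end peaks, 35.9% of all calls were higher, against 51.2% before, and 4 members were raised.

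At the start of Ndufa5 (chr6:24527308-24528099), a subunit of the arm of complex I that takes electrons from NADH, the level was 41.5, 48.3 and 36.9 CPM with vehicle and 64.1, 74.1 and 63.6 CPM with DFMO. The groups did not overlap, and the change was 0.65 ± 0.16 on the log2 scale (SE; adjusted p = 0.00623, edgeR). This peak also lies at the end of Asb15. Ndufa3, a small complex I subunit, went from 40.6, 33.2 and 36.3 CPM to 53.0, 56.7 and 64.2 CPM, a change of 0.68 ± 0.19 (adjusted p = 0.0141, edgeR). Its peak also lies at an end of Oscar. Ndufb10, a subunit of the membrane arm, had 16.0, 23.9 and 22.3 CPM with vehicle and 34.5, 37.1 and 36.3 CPM with DFMO. Its DFMO libraries were close together and well above the vehicle libraries (log2 change 0.72, adjusted p = 0.0242, edgeR). Cox7c, a small complex IV subunit, went from 22.6, 31.4 and 31.5 CPM to 43.6, 43.0 and 52.5 CPM (0.63 ± 0.19, adjusted p = 0.0256, edgeR). Atp5o had 15.1, 21.3 and 21.2 CPM with vehicle and 29.3, 31.5 and 37.6 CPM with DFMO (0.69 ± 0.22, adjusted p = 0.0365, edgeR). The broad peak at Sdhaf1 (1621 bp), the member with the highest counts, rose by 0.39 ± 0.11 (adjusted p = 0.02, edgeR), from 115, 144 and 124 CPM to 166, 165 and 180 CPM. Ndufaf3 shares its peak with Dalrd3 and 2 miRNA genes, Mir191 and Mir425, and rose by 0.44 (adjusted p = 0.0237, edgeR). The 8th call, at Cox7a2, is described below with the other peaks that cover no tabulated start site.

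None of these calls held without each library in turn. The count of members raised in Th17n was 2, 0 and 3 without the DFMO libraries of animals 1, 2 and 3, and 2, 3 and 1 without the vehicle libraries of animals 1, 2 and 3; without 1 iTreg library it was 6 to 10. Ndufa5 lost its call without the DFMO library of animal 2 (adjusted p = 0.0785, edgeR) and the vehicle library of animal 3 (adjusted p = 0.116, edgeR). Its log2 change stayed between 0.51 and 0.77 in the 12 fits. Cox7c lost it without any 1 of the 6 Th17n libraries, with an adjusted p of up to 0.143 (edgeR).

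In iTreg cells, DFMO raised 6 members and lowered 2. Those raised are at Ndufa5, Ndufb4 and Ndufb6 (complex I), Sdhaf3 and Sdhaf4 (complex II assembly) and Cox7c. Those lowered are at Ndufaf6 (complex I assembly) and Atp5d (the delta subunit of complex V). Over all peaks 3.84% were called higher and 4.72% lower, and at gene ends 3.68% and 3.64%. An unadjusted p under 0.05 was reached by 26 members, by 2497 of 11789 gene-end peaks and by 9963 of all 43726. All DFMO libraries lay above all vehicle libraries at 22 members (15.0% of gene-end peaks, 11.4% of all) and below them at 5 (11.5% and 12.2%). The members' median was 0.12, against 0.04 at gene ends and -0.01 over all peaks, and 70 of 91 members were above 0.

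Sdhaf3 and Sdhaf4 help to assemble succinate dehydrogenase, the first at its iron-sulfur subunit and the second at its flavoprotein. At Sdhaf3 (chr6:6955582-6956493) the level was 32.1, 30.4 and 29.7 CPM with vehicle and 60.2, 41.5 and 56.0 CPM with DFMO. All DFMO libraries lay above the tightly grouped vehicle libraries (0.78 ± 0.20, adjusted p = 0.00846, edgeR). Sdhaf4 went from 9.84, 17.6 and 12.3 CPM to 24.1, 27.7 and 22.5 CPM (0.86 ± 0.28, adjusted p = 0.0468, edgeR). Cox7c went from 44.6, 38.2 and 38.7 CPM to 73.5, 51.4 and 58.8 CPM (0.60 ± 0.18, adjusted p = 0.0239, edgeR). Ndufa5 had 71.5, 53.1 and 63.2 CPM with vehicle and 99.4, 81.6 and 78.2 CPM with DFMO. The groups did not overlap (0.47 ± 0.15, adjusted p = 0.0402, edgeR). Ndufb4, a membrane-arm subunit, had 21.8, 23.1 and 30.5 CPM with vehicle and 42.2, 31.6 and 45.6 CPM with DFMO (0.65 ± 0.22, adjusted p = 0.0485, edgeR), and missed the threshold with the animal as a replicate block (adjusted p = 0.0537, edgeR). Ndufaf6 fell from 50.8, 46.7 and 41.8 CPM to 31.3, 30.6 and 27.7 CPM (-0.63 ± 0.20, adjusted p = 0.0426, edgeR). This last call was lost under DESeq2 (adjusted p = 0.0599) and RLE scaling (adjusted p = 0.0518, edgeR).

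**Figure D2:**
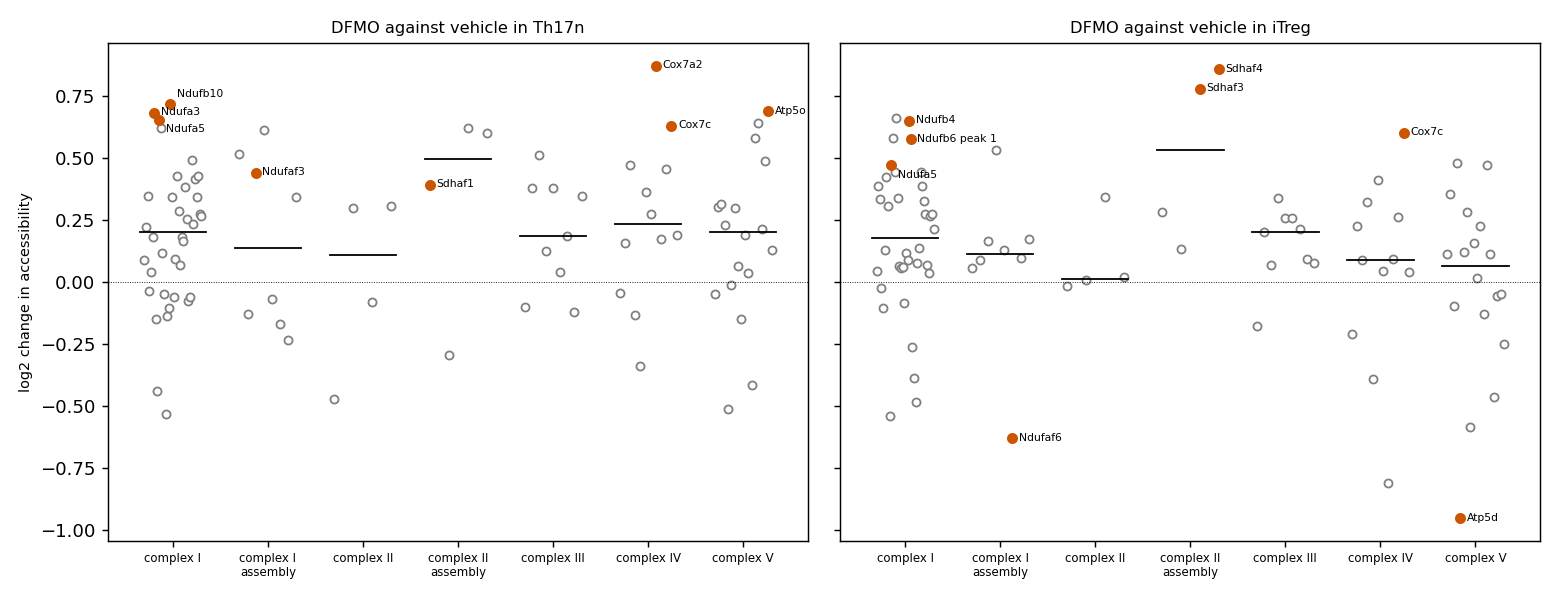
Log2 change with DFMO at each of the 91 member peaks tested, grouped by complex, in Th17n (left) and iTreg (right). Filled and named points passed an adjusted p of 0.05, open points did not, and lines mark group medians. Most points of complex I lie above 0 in both panels, and the calls are spread over several complexes.

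These calls also did not hold without each library in turn. The number raised in iTreg was 0 without the DFMO or the vehicle library of animal 3, 3 without the DFMO library of animal 1 or the vehicle library of animal 2, and 3 without the Th17n DFMO library of animal 2. The number lowered was 0 without the iTreg DFMO library of animal 1 or the iTreg vehicle library of animal 2. It was 1 without any 1 of 7 libraries: Th17n DFMO of animals 1 and 2, Th17n vehicle of animals 2 and 3, iTreg DFMO of animal 3 and iTreg vehicle of animals 1 and 3. Sdhaf3 was lost without the DFMO library of animal 3 (adjusted p = 0.0674, edgeR) and the vehicle library of animal 3 (adjusted p = 0.0537, edgeR). Its log2 change stayed between 0.70 and 0.92 in the 12 fits.

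By complex, the members' medians with DFMO were above 0 throughout. In Th17n they were 0.20 for complex I, 0.14 for its assembly factors, 0.11 for complex II, 0.50 for complex II assembly, 0.19 for complex III, 0.23 for complex IV and 0.20 for complex V. In iTreg they were 0.18, 0.11, 0.01, 0.53, 0.20, 0.09 and 0.06 in the same order. The complex II assembly factors had the highest median in either lineage, over 4 peaks, of which 1 was called in Th17n (Sdhaf1) and 2 in iTreg (Sdhaf3 and Sdhaf4). Of the complex II subunits 0 were called with DFMO. Members whose end is shared with another coding gene had a median of 0.12 in Th17n and 0.11 in iTreg, and the others 0.27 and 0.15.

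At 13 members (14.3%) all DFMO libraries lay above all vehicle libraries in both lineages, where 4.83% of gene-end peaks did. Besides Ndufa5, Cox7c, Sdhaf1, Sdhaf3 and Ndufb4 these are Ndufa11, Ndufaf4, Ndufaf8, Ndufv1 and Ndufv2 (flavoprotein subunits of the NADH site), Uqcr10 of complex III, and Atp5k and the start-site peak of Atp5b of complex V. Of these, Ndufaf4 was at 0.61 in Th17n (adjusted p = 0.0545) and 0.53 in iTreg (adjusted p = 0.0898), past the threshold in neither (edgeR). Of the calls 2, Ndufa5 and Cox7c, were shared, 25.0% of those raised in Th17n and 33.3% of those raised in iTreg. At gene ends 82 peaks were raised in both, 15.6% and 18.9%. The 2 comparisons share no library but the same 3 animals.

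All DFMO libraries lay below all vehicle libraries in both lineages at 2 members, Atp5d and Ndufa4l2 (2.61% of gene-end peaks did). Ndufa4l2, the paralog of Ndufa4 that is known to be induced by HIF in low oxygen, had 29.3, 24.5 and 24.6 CPM with vehicle and 20.5, 20.0 and 14.9 CPM with DFMO in Th17n. In iTreg it had 43.5, 34.2 and 29.1 CPM and 28.9, 19.3 and 24.3 CPM. The changes of -0.44 and -0.54 did not pass the test (adjusted p = 0.277 and 0.139, edgeR), and the peak also lies at the end of Stac3. Sdha, the catalytic flavoprotein of complex II, was at 42.5, 40.8 and 38.6 CPM with vehicle and 30.3, 29.4 and 27.2 CPM with DFMO in Th17n, with no overlap, and did not pass (-0.47 ± 0.20, adjusted p = 0.135, edgeR). In iTreg its groups overlapped (-0.02), and the peak also lies at an end of Ccdc127. Atp5d in Th17n was at -0.51 (adjusted p = 0.168, edgeR).

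**Figure D3:**
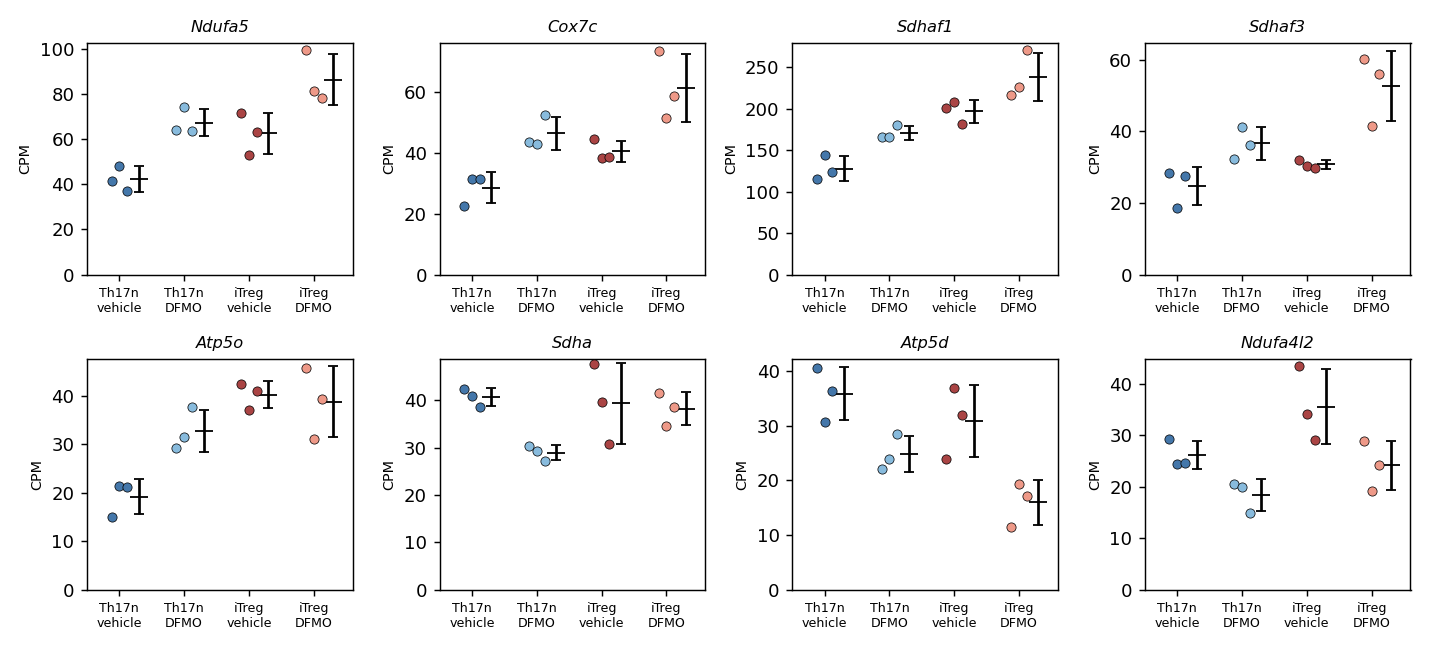
Accessibility in CPM at 8 member peaks, by group. Points are libraries (animals 1 to 3 from left to right) and the bars beside them are mean ± SD. Ndufa5, Cox7c, Sdhaf1 and Sdhaf3 are higher with DFMO in both lineages without overlap, Atp5o in Th17n only without overlap, and Atp5d and Ndufa4l2 are lower in both.

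The subunits that carry the redox centres and the catalytic head were among those not called with DFMO. In Th17n and iTreg the log2 changes were 0.43 and 0.27 at Ndufv1, -0.06 and 0.39 at Ndufs1, 0.30 and 0.01 at Sdhb, -0.08 and 0.34 at Sdhc, and 0.31 and 0.02 at Sdhd. They were 0.38 and 0.26 at Uqcrc1, 0.19 and 0.21 at Uqcrfs1, and -0.10 and -0.18 at Cyc1. In complex IV, Cox4i1 was at -0.04 and -0.21, Cox5b at 0.16 and 0.22 and Cox7a2l, a factor of supercomplex assembly, at 0.17 and 0.09. In complex V, Atp5a1 was at -0.05 and 0.11 and the start-site peak of Atp5b at 0.30 and 0.35. None of these 13 had an adjusted p under 0.05 in either lineage (edgeR), which does not show that they were unchanged.

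Among isoform pairs, both partners had a peak at Cox6b1 and Cox6b2, at Cox7a1 and Cox7a2, at Ndufa4 and Ndufa4l2 and at Atp5g1, Atp5g2 and Atp5g3. The Atp5g genes encode the same c-ring protein of complex V. Atp5g1 was at 71.7, 67.3 and 69.2 CPM in Th17n with vehicle and 88.2, 93.7 and 70.1 CPM with DFMO, and at 106, 112 and 107 CPM and 138, 142 and 118 CPM in iTreg. Its changes of 0.30 and 0.28 did not pass (adjusted p = 0.165 and 0.158, edgeR). Ndufa4 was at -0.15 in Th17n and 0.30 in iTreg, and Cox6b2 at -0.34 and -0.39, past the threshold in neither.

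Between lineages, 33 member peaks were lower and 2 higher in Th17n than in iTreg with vehicle, and 24 lower and 3 higher with DFMO. The direction of these counts depends on the scaling. With vehicle 32.4% of gene-end peaks were called lower and 3.88% higher (all peaks: 19.3% and 25.2%), and with DFMO 24.9% and 3.93% (all peaks: 14.7% and 22.5%). The members' median of -0.37 with vehicle lay beside -0.33 at gene ends, and that of -0.34 with DFMO beside -0.27. With TMM factors taken from gene-end peaks, the median of all peaks moved up by 0.31 with vehicle and 0.26 with DFMO. Among all calls 81.3% were then higher in Th17n, against 56.6% before, with vehicle, and 83.4% against 60.5% with DFMO. The members' medians became -0.053 and -0.086, with 7 lower and 4 higher with vehicle and 2 lower and 5 higher with DFMO. Those of all gene-end peaks were then -0.011 and -0.012. Without overlap, 42 members were lower and 3 higher with vehicle (43.1% and 5.39% of gene-end peaks, 25.5% and 27.8% of all), and 35 and 4 with DFMO (33.5% and 5.54%, 19.7% and 25.8% of all).

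The lower peaks with the smallest p with vehicle were Sdhaf1 (-0.60), Ndufaf3 (-0.65), Atp5g1 (-0.65), Uqcrq of complex III (-0.70), Ndufaf8 (-0.56) and Atp5o (-0.99). Those of Ndufaf3, Uqcrq and Ndufaf8 also lie at an end of Dalrd3, Gdf9 and Tepsin, in that order. Atp5o was at 15.1, 21.3 and 21.2 CPM in Th17n and 42.5, 37.1 and 40.9 CPM in iTreg with vehicle (-0.99 ± 0.21, adjusted p = 0.00011, edgeR). It kept its call with factors from gene ends and with loess scaling, where its highest adjusted p was 0.00682. With DFMO the groups were closer, at 29.3, 31.5 and 37.6 CPM in Th17n and 45.8, 31.1 and 39.4 CPM in iTreg, and the difference was -0.25 (adjusted p = 0.359, edgeR). The change in this difference, 0.74 ± 0.29, did not pass the test (adjusted p = 0.216, edgeR). With DFMO the lower peaks with the smallest p were Atp5g1 (-0.64), Sdhaf2 (-0.66), Sdhaf1 (-0.49), Atp5c1, the gamma subunit that turns in the head of complex V (-0.69), the start-site peak of Atp5b (-0.49) and Ndufv2 (-0.48). The Sdhaf2 peak also lies at an end of Cpsf7 and the Atp5c1 peak at an end of Kin. Of the named lower peaks, Sdhaf1, Ndufaf3, Atp5g1, Uqcrq and Atp5o with vehicle and Atp5g1 and Sdhaf2 with DFMO kept their calls with factors from gene ends. With loess scaling Atp5o with vehicle and Atp5g1 and Sdhaf2 with DFMO kept theirs, while with vehicle Sdhaf1 (-0.15, adjusted p = 0.24), Ndufaf3 (-0.27, adjusted p = 0.0963), Atp5g1 (-0.26, adjusted p = 0.126), Uqcrq (-0.29, adjusted p = 0.127) and Ndufaf8 (-0.14, adjusted p = 0.338) did not (limma).

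**Figure D4:**
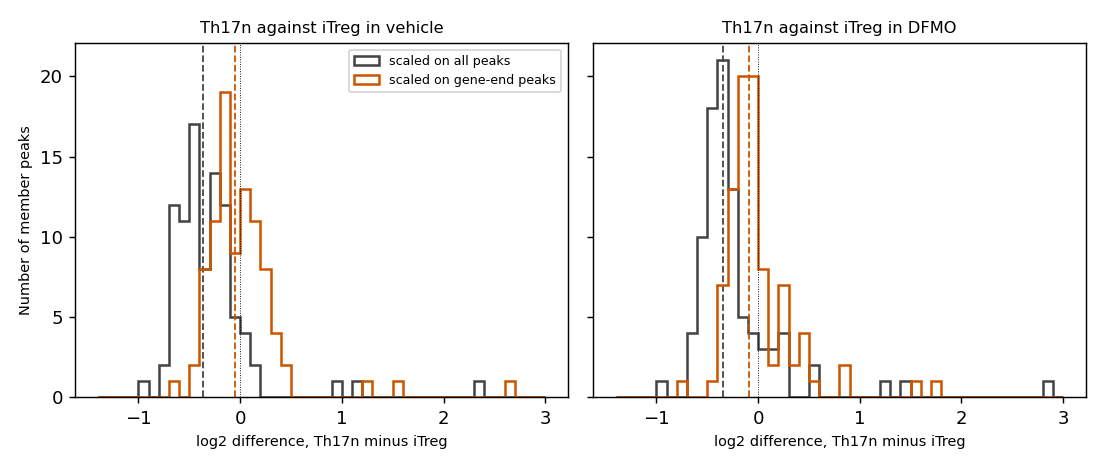
Log2 difference between Th17n and iTreg over the 91 member peaks tested, with vehicle (left) and DFMO (right), after scaling on all peaks or on gene-end peaks. Dashed lines mark the medians, -0.37 and -0.053 with vehicle and -0.34 and -0.086 with DFMO; the peaks at Ndufab1 and Cox7a2 lie on the right in both panels, with Atp5pb near them.

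The member peaks called higher in Th17n covered no tabulated start site. Of the 70 member peaks over a start site, 0 were higher and 29 lower with vehicle, and 0 and 19 with DFMO (edgeR, scaled on all peaks). At start sites in general few peaks were higher too. With vehicle, 1 of 1000 start-site peaks with the NRF1 motif and 98 of 7581 without it were higher, and 425 and 2756 lower. With DFMO, 5 and 115 were higher and 319 and 2228 lower. With vehicle the member with the highest difference is a peak at the far end of Ndufab1 (chr7:122086939-122087706), 14142 bp from the start site of this gene for the mitochondrial acyl carrier protein, a complex I subunit. It was at 62.3, 58.8 and 56.1 CPM in Th17n and 5.70, 15.3 and 11.4 CPM in iTreg with vehicle, a difference of 2.34 ± 0.27 (adjusted p = 7.49e-10, edgeR). With DFMO it was at 52.4, 34.5 and 32.4 CPM in Th17n and 7.23, 26.2 and 10.8 CPM in iTreg, a difference of 1.47 ± 0.28 (adjusted p = 5.81e-05, edgeR). The lineages did not overlap in either treatment. At the Ndufab1 start site the differences were -0.26 and -0.46 and did not pass the test (adjusted p = 0.274 and 0.0636, edgeR). A low peak at Atp5pb lies 349 bp from the start site of that gene, much nearer than the Ndufab1 peak, and also at an end of Wdr77. It was higher in Th17n with DFMO (1.29 ± 0.48, adjusted p = 0.0298, edgeR), at 5.96 to 9.73 CPM against 2.46 to 3.95 CPM. This call was lost with loess scaling (0.72, adjusted p = 0.184, limma) and without the DFMO library of animal 1 or 3 in either lineage (adjusted p up to 0.153, edgeR). With vehicle its difference was 0.91 (adjusted p = 0.0819, edgeR).

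The peak counted for Cox7a2 (chr9:79772200-79772621) lies 778 bp from the upstream end of that gene model, which is on the minus strand. The tabulated start site is inside the model and 12347 bp from the peak. This peak is inside the gene Tmem30a, so its place does not tie it to Cox7a2. It was at 11.3, 21.3 and 29.8 CPM in Th17n with vehicle and 47.5, 40.0 and 33.1 CPM with DFMO. In iTreg it was at 10.9, 9.55 and 9.14 CPM with vehicle and 3.61, 5.44 and 6.77 CPM with DFMO. It was higher in Th17n than in iTreg by 1.19 ± 0.28 with vehicle (adjusted p = 0.000602, edgeR) and by 2.87 ± 0.32 with DFMO (adjusted p = 8.36e-10, edgeR), the latter the highest difference of any member. DFMO raised it in Th17n (0.87 ± 0.26, adjusted p = 0.0262, edgeR), while in iTreg all DFMO libraries lay below the vehicle libraries without passing the test (-0.81 ± 0.35, adjusted p = 0.15, edgeR). It was the 1 member whose DFMO effects differed between the lineages (1.68 ± 0.44, adjusted p = 0.0362, edgeR), where 0.835% of all peaks and 0.441% of gene-end peaks were called higher in this interaction. In the opposite direction 0 members were called (0.478% and 0.11%). An unadjusted p under 0.05 for the interaction was reached by 7 of 91 members, by 1108 of 11789 gene-end peaks and by 6094 of all 43726. Next to Cox7a2 and Atp5o, the 7 members include Sdhaf2 (-0.43, adjusted p = 0.279) and the far peak of Ndufab1 (-0.87, adjusted p = 0.296), neither of which passed (edgeR). The peak over the Cox7a2 start site was called in none of the comparisons, at group means of 39.8, 40.9, 42.3 and 50.6 CPM.

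**Figure D5:**
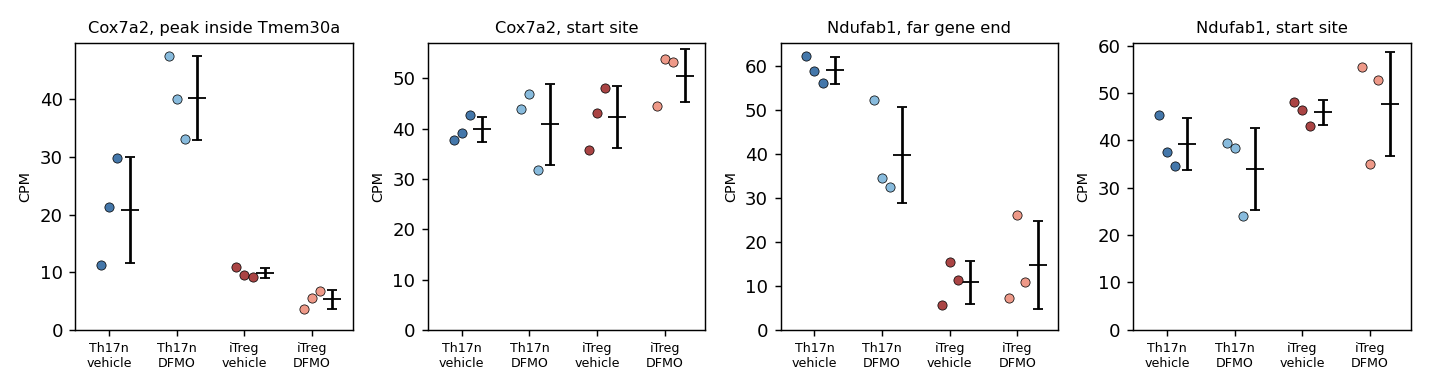
Accessibility in CPM at the peak counted for Cox7a2 inside Tmem30a, the Cox7a2 start site, the far end of Ndufab1 and the Ndufab1 start site, by group. Points are libraries (animals 1 to 3 from left to right) and the bars beside them are mean ± SD. At the Tmem30a peak and the far end of Ndufab1 the lineages do not overlap within a treatment, and at both start sites they do.

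The peak that fell at Atp5d in iTreg (chr10:80138727-80139530) likewise lies away from the tabulated start site, by 2745 bp. That start site is inside the gene model. The peak is 29 bp from the upstream end of the model, on the gene's plus strand, and also at the end of Cbarp. It was at 23.8, 36.9 and 32.0 CPM with vehicle and 11.4, 19.3 and 17.2 CPM with DFMO (-0.95 ± 0.24, adjusted p = 0.00835, edgeR). The call was lost without the DFMO library of animal 1 (adjusted p = 0.0563, edgeR) and the vehicle library of animal 2 (adjusted p = 0.0811, edgeR). The peak over the Atp5d start site was at 0.09 in iTreg (adjusted p = 0.824, edgeR) and 0.56 in Th17n (adjusted p = 0.075, edgeR). The Ndufb6 peak that rose in iTreg (0.57 ± 0.16, adjusted p = 0.0161, edgeR) also lies at ends of Smim27 and Topors, 9348 bp from the Ndufb6 start site, and the peak over that start was at -0.26. So 2 of the 8 iTreg calls and 1 of the 8 Th17n calls were away from a tabulated start site, and the start of Ndufaf6 is not in the table.

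The member promoters were searched for motifs of 6 kinds. The windows searched run from 250 bases before to 50 after a start, on both strands: 79 windows of member genes with a peak, 21262 of all genes and 10547 under a peak. The NRF1 motif, spelled out above, was in 21 member windows (26.6%), against 6.38% of all windows and 11.3% of those under a peak. CCGGAAG, the ETS motif, was in 26.6% against 11.6% and 20.0%, and AAGATGGC, the YY1 motif, in 12.7% against 3.05% and 4.82%. GGGCGG (Sp1) was in 46.8% against 46.2% and 70.2%. TGACGTCA, the CRE, was in 5.06% against 2.23% and 3.56%, and CACGTG, the E-box, in 8.86% against 7.84% and 10.8%. A match is a description of the letters and not a bound site.

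Of the 10 genes whose start-site peak rose with DFMO in either lineage, 5 held the NRF1 motif (Ndufa5, Ndufb4, Atp5o, Sdhaf3 and Sdhaf4). At Atp5o, Sdhaf3 and Sdhaf4 the match does not lie wholly within the 250 bases before the start. The Sp1 motif was held by 7, the ETS motif by 2 (Sdhaf1 and Sdhaf3) and the YY1 motif by 1 (Ndufa3). The start-site peaks of member genes were then split by motif. They include those of Atp5d and Cox7a2, which are not themselves member peaks. The median log2 change in Th17n was 0.38 for the 19 with the NRF1 motif and 0.19 for the 53 without, and in iTreg 0.26 and 0.12. In iTreg 4 of the 19 and 1 of the 53 were called higher, and in Th17n 2 and 5. Over all peaks at start sites 4.6% with the motif and 3.98% without were called higher in iTreg, and 5.6% and 4.51% in Th17n. The medians over all start-site peaks were 0.15 (1000 peaks) and 0.07 (7581 peaks) in Th17n and 0.08 and 0.04 in iTreg. For the YY1 motif the medians over all start-site peaks were 0.20 with it (444 peaks) and 0.08 without in Th17n and 0.15 and 0.04 in iTreg. Over the start-site peaks of member genes they were 0.19 (11 peaks) and 0.27 (61 peaks) in Th17n and 0.14 and 0.13 in iTreg. The difference between motif classes was not tested.

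Other genes of the pathway were also called with DFMO, where 4.46% of gene-end peaks were higher in Th17n and 3.68% in iTreg. Of 34 peaks tested at assembly factors with other names, 5 were higher and 0 lower in Th17n and 2 higher and 0 lower in iTreg. Foxred1, a complex I assembly factor, rose in both: from 55.7, 52.7 and 43.8 CPM to 75.5, 93.3 and 72.0 CPM in Th17n (0.69 ± 0.14, adjusted p = 0.00137, edgeR) and from 76.7, 89.1 and 81.5 CPM to 119, 114 and 113 CPM in iTreg (0.47 ± 0.13, adjusted p = 0.0171, edgeR). The others in Th17n were Cox20 (0.61), Lyrm7 (0.52), Coa4 (0.52) and Cox18 (0.45), and in iTreg Acad9 (0.67). At nuclear regulators (22 peaks), Polrmt, the mitochondrial RNA polymerase, rose in Th17n (0.64 ± 0.20, adjusted p = 0.0317, edgeR). In iTreg Tfb1m (0.56) and Ssbp1 (0.81), which act in mitochondrial ribosome assembly and DNA maintenance, rose, and 0 fell in either lineage. At electron entry and quinone synthesis genes (19 peaks), Pdss1 (0.57) and Coq3 (0.80) rose in Th17n and Coq7 (0.48) in iTreg. Sqor, which feeds electrons from sulfide into ubiquinone, fell in Th17n from 39.6, 35.8 and 24.3 CPM to 14.6, 16.2 and 20.1 CPM (-0.96 ± 0.25, adjusted p = 0.00914, edgeR). Of 17 peaks at citric acid cycle genes 0 were called with DFMO in either lineage, with medians of 0.11 and 0.12. Of 80 peaks at mitochondrial ribosomal protein genes 6 were higher in Th17n and 5 in iTreg and 0 lower, with medians of 0.17 and 0.14.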

How the data were processed

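The table the authors deposited holds raw read counts (whole numbers) for each peak in each library, on mouse build mm10 per the submitters' processing notes. Trimmomatic, FastQC, Bowtie2 and MACS2 are named in those notes. Neither the version nor the use of each tool is given in the sources used here, nor is it said whether peak starts count from 0 or 1. All 12 columns belong to the 12 libraries, and 0 columns were left out.

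Gene ends came from RefSeq GRCm38.p6, an annotation of the same build without strand, so the rule uses both ends of a gene model; start sites and promoter sequences came from RefSeq for 74 of the 88 genes with a peak. The test was edgeR 4.0.16 (R 4.3.3) after a low-count filter, filterByExpr at a minimum count of 10, which kept 43726 peaks. It used TMM factors, glmQLFit and glmQLFTest on 1 model of 4 group means over all 12 libraries, with Benjamini-Hochberg adjustment over all peaks tested. SE is the log2 change divided by the square root of the F statistic. Alternatives were DESeq2 1.42.0, RLE and unscaled totals, TMM on gene-end peaks, loess with limma 3.58.1, no filter, thinning to the smallest library, an animal block, fits of only the groups compared, a window of 500 bp and leaving out each library. Peaks over start sites were added as an alternative after seeing the data. The scripts were tested on simulated data for DFMO against vehicle in Th17n, with changed peaks drawn from all peaks tested. Of 100 peaks with a true log2 change of 1 in size, 36 were recovered, and of 100 with 2, 74. False calls numbered 8 among 43726 peaks run. P-values rest on 3 animals a group.

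The labels number the animals 1 to 3 in every group, so libraries pair by animal. The deviations from the group means had correlations of -0.055 to 0.075 over the 18 same-animal pairs. For 7 of 12 libraries the closest match among libraries of the other groups was from the same animal. Named peaks are, per comparison and direction, up to 6 of smallest adjusted p past 0.05 (the 2 of smallest p where fewer than 2 passed), a list of core subunits, isoform pairs, the highest and lowest members and up to 4 genes a pathway list. Cox18, Coa4, Ndufaf4, Ndufa11, Uqcr10, Atp5k and Atp5pb's level per kb were named after their values were seen. Members and lists were chosen with earlier results of these data known. Some items are not reported here.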

Additional observations from a re-analysis of the deposited data

Results flagged for a closer look

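The peak counted for Cox7a2, inside Tmem30a, was singled out because the test of the difference between lineages passed its threshold: its change with DFMO was larger in Th17n than in iTreg by 1.68 on the log2 scale (adjusted p = 0.0362, edgeR). All 3 Th17n libraries moved up with DFMO relative to the vehicle libraries and all 3 iTreg libraries lay lower. The adjusted p ran up to 0.233 over the other settings and up to 0.147 with 1 library left out. The call was lost in 8 of 12 such fits: without Th17n DFMO of animals 1 and 2 (adjusted p = 0.147 and 0.0782), Th17n vehicle of animals 1 and 2 (0.0982 and 0.103), iTreg DFMO of animals 1 and 3 (0.119 and 0.0629) and iTreg vehicle of animals 2 and 3 (0.0727 and 0.0606).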

How the results depend on the processing

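No peak named for its p changed direction in the settings run. The balance of member calls between lineages with DFMO turned, from 3 higher and 24 lower to 5 higher and 2 lower, with gene-end factors. The members' median of the interaction, 0.055, was -0.0017 with RLE, -0.016 after thinning, -0.021 with loess and -0.029 to 0.103 with 1 library left out. With TMM factors from gene-end peaks, DFMO raised 4 members in Th17n (median 0.12) and 3 in iTreg; between lineages 7 were lower and 4 higher with vehicle (median -0.053) and 2 lower and 5 higher with DFMO (median -0.086). With loess scaling the counts raised were 5 (median 0.14) and 3, with 1 lowered in iTreg, and between lineages 6 lower and 4 higher with vehicle (median -0.15) and 4 lower with DFMO (median -0.15). After thinning, 3 were raised in Th17n, 2 raised and 0 lowered in iTreg, and 17 (median -0.26) and 11 (median -0.27) were lower between lineages. Library totals alone gave 3 raised in iTreg and 14 lower between lineages with DFMO (median -0.28). No filter gave 5 raised in Th17n. RLE and DESeq2 each gave 1 lowered in iTreg. A fit of only the Th17n groups gave 1 lowered, the far peak of Ndufab1. Within 500 bp, 1 was higher in Th17n with vehicle and 0 in the interaction. Over start sites, 0 were lowered in iTreg, and 0 higher in Th17n with vehicle or DFMO. The interaction gave 0 over start sites, with gene-end factors, after thinning and with loess.

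With 1 library left out, the members raised by DFMO in Th17n numbered 0 to 10 (median 0.16 to 0.21) and in iTreg 0 to 7 (median 0.11 to 0.17), with 0 to 2 lowered in iTreg. Lower between lineages were 18 to 34 with vehicle (median -0.38 to -0.32) and 16 to 28 with DFMO (median -0.39 to -0.33), and higher 2 and 2 to 4. The interaction gave 0 to 1. Of 16 DFMO calls 0 held without each library in turn, and each was lost without 2 to 9 of them; 2 held in all other settings (Ndufa5 and Ndufb10 in Th17n). Of 34 named calls, DESeq2 kept 33, RLE 33, the replicate block 33 (it ended the iTreg call at Ndufb4, adjusted p = 0.0537, and no other of them), gene-end factors 21 and loess 16. The cause of these changes was not tested, except that thinning and leaving out libraries use fewer counts. Depth limits the low peaks: Cox7b was at 4.14 CPM.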
